A study of Homo sapiens with 10 samples.

Results

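The annexins are a family of proteins that bind acidic phospholipids at membranes when calcium rises. Members take part in exocytosis, endocytosis, the link between membranes and the actin cortex, and the repair of torn plasma membrane, and several bind small calcium sensors of the S100 family. ANXA1 and ANXA2 are among the most studied in epithelia and carcinomas: ANXA1 is induced by glucocorticoids and acts outside the cell through formyl peptide receptors, and ANXA2 with S100A10 brings plasminogen and its activator together on the cell surface. The genes described here were the 10 annexins ANXA1, ANXA2, ANXA3, ANXA4, ANXA5, ANXA6, ANXA7, ANXA9, ANXA10 and ANXA11. They were found by their symbol among 23170 gene entries, and their 17 isoform entries among 37557.

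RNA-seq had been performed on 10 samples of 4 lines. All go back to PC3 cells, which were grown from a human prostate carcinoma. PC3-Epi (2 samples) was a stable epithelial subpopulation that carried luciferase, and PC3-EMT14 (3 samples) was a mesenchymal subpopulation isolated after PC3-Epi cells had been grown together with macrophages made from IL4-treated CD14+ monocytes. The OVOL1 line, PC3-EMT14-OVOL1 (3 samples), was PC3-EMT14 transduced with a lentivirus for OVOL1 and then selected, and the OVOL2 line, PC3-EMT14-OVOL2 (2 samples), was made with OVOL2. The constructs differed: that for OVOL1 was bought ready-made, and OVOL2 was cloned into pLenti6.2/C-Lumio/V5-DEST, so that construct and gene cannot be told apart between the OVOL lines. OVOL1 and OVOL2 are zinc finger transcription factors of epithelia. All 4 lines thus descended from PC3-Epi. The questions the design raised were which genes differed between the mesenchymal and the epithelial line, and how far each OVOL line stood from the mesenchymal line. No sample was labelled as an empty-vector line. Transduction and selection therefore cannot be told apart from the OVOL gene in the comparisons with PC3-EMT14. Levels are FPKM, fragments scaled to transcript length and to sequencing depth, here by the upper quartile. Each line has 1 value per table, the authors' value pooled over its samples. There was therefore no replicate check, no SD and no test for any value below, and the depth of the samples is unknown. A gene is said to be past 2-fold when its ratio was at least 2 or at most 0.5 and the higher line had at least 1 FPKM. Fewer expressing cells and less RNA per cell could not be told apart.

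The overexpressed genes were looked at first, as a check of the labels. OVOL1 had 0.024 FPKM in PC3-EMT14, 11.3 in PC3-EMT14-OVOL1 and 4.25 in PC3-Epi, and OVOL2 had 0.383, 831 in PC3-EMT14-OVOL2 and 9.91 in PC3-Epi. The overexpressed gene was thus listed far higher in the OVOL2 line than in the OVOL1 line. Its level and its identity cannot be told apart where the OVOL lines differ. Of 9 epithelial markers, 4 were past 2-fold higher than PC3-EMT14 in the OVOL1 line, 5 in the OVOL2 line and 7 in PC3-Epi, among them CDH1 at 1.00, 16.2, 39.2 and 50.6 FPKM in PC3-EMT14, the OVOL1 line, the OVOL2 line and PC3-Epi. Of 6 mesenchymal markers, 1, 5 and 3 were past 2-fold lower, and VIM had 271, 183, 76.9 and 42.5 FPKM in the same order. Of 8 macrophage markers, 7 had at most 0.0991 FPKM in each line, PTPRC and CD14 included, while CD68, which is not restricted to macrophages, had 54.1 FPKM in PC3-EMT14, 51.2 in the OVOL1 line, 57.8 in the OVOL2 line and 13.2 in PC3-Epi, where it was past 2-fold lower with a log2 ratio of -2.03. The part of CD68-expressing cells in the values below was not tested. Of the prostate markers, KLK3 was listed at 0 in all 4 lines and FOLH1 had at most 0.305 FPKM.

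Several annexins were abundant transcripts in every line. Together the 10 annexins had 2032 FPKM in PC3-EMT14, 1899 in the OVOL1 line, 2003 in the OVOL2 line and 1417 in PC3-Epi. These were 0.466%, 0.432%, 0.482% and 0.297% of the FPKM summed over all genes. In each line 5 members, ANXA1, ANXA2, ANXA5, ANXA7 and ANXA11, were at 100 FPKM or more. ANXA2 was the highest member in all 4 lines and ranked 75 among all genes in PC3-EMT14. That rank and the sums above depend on how reads were divided between ANXA2 and its pseudogenes, described below. ANXA2P2 alone had 955 FPKM in PC3-EMT14. ANXA9 and ANXA10 were the lowest members in all 4 lines. PC3-EMT14 stood in 3 tables and each OVOL line in 2, and a member's value moved by at most 3.27% between tables of the same line, by nearly the same factor for every member of a line. Those repeats therefore show the scaling of a table and carry no replicate error. Levels of different lines are set side by side from the tables against PC3-EMT14, and each ratio was computed within 1 table.

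**Figure D1:**
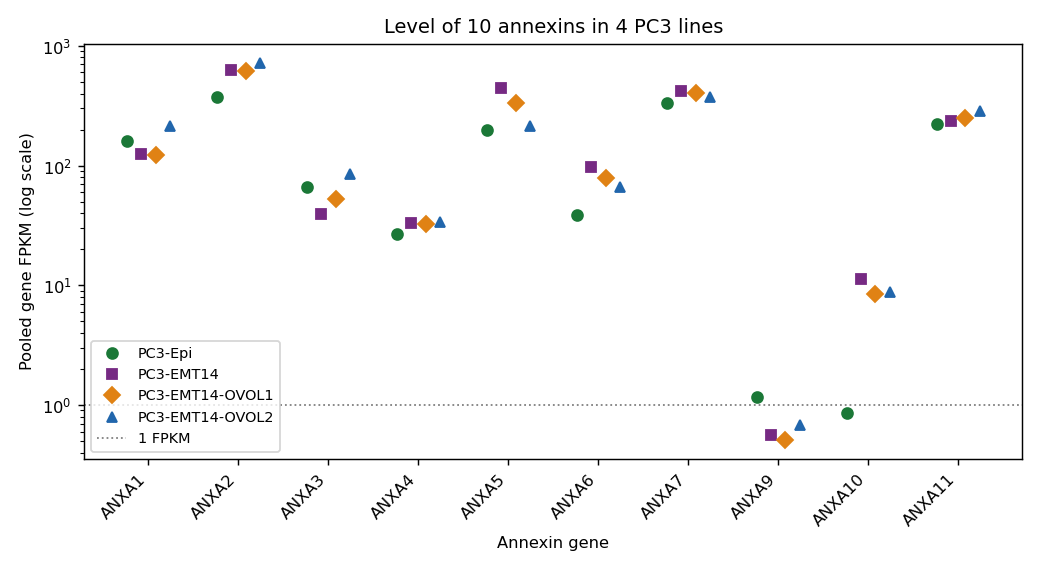
Pooled gene FPKM (vertical axis, log scale) of the 10 annexins in the epithelial line, the mesenchymal line and both OVOL lines, 1 point per line, with no error bars since the values are pooled. ANXA10 in PC3-Epi, at 0.858 FPKM, stands far below the other lines, at 8.49 to 11.2 FPKM, while ANXA4, ANXA7 and ANXA11 lie closest together over the 4 lines.

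Against PC3-EMT14, the number of annexins past 2-fold was 0 of 10 in the OVOL1 line, 2 in the OVOL2 line and 4 in PC3-Epi, and it was 0 for the OVOL2 line against the OVOL1 line. Over all genes with at least 1 FPKM in the higher line, 3.97% were past 2-fold for OVOL1, 7.35% for OVOL2, 15.7% for PC3-Epi and 3.08% between the OVOL lines. With at least 10 FPKM in the higher line, a range closer to most annexins, the shares of all genes were 2.31%, 5%, 11.1% and 2.21%, and the annexins past 2-fold numbered 0, 2, 3 and 0. The OVOL2 line had ANXA3 higher and ANXA5 lower. PC3-Epi had ANXA5, ANXA6 and ANXA10 lower and ANXA9 higher. The 1 FPKM limit was met by all 10 annexins in the comparison with PC3-Epi and by 9 in each of the others, where ANXA9 fell short of it.

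Against PC3-EMT14, 10 of 10 annexins lay within 1.5-fold in the OVOL1 line, 7 in the OVOL2 line and 4 in PC3-Epi, and 7 did so between the OVOL lines. The share of all genes within 1.5-fold was not computed. For OVOL1, ANXA3 had the largest absolute log2 ratio of the members, and 12.5% of genes with at least 1 FPKM had a larger one. Outside 1.5-fold, the nearest member was ANXA1 for OVOL2, ANXA3 for PC3-Epi and ANXA5 between the OVOL lines. The shares of genes with a larger absolute log2 ratio than these were 8.78%, 23.3% and 6.11%. The median absolute log2 ratio of the 10 was 0.11 for OVOL1, 0.33 for OVOL2, 0.74 for PC3-Epi and 0.24 between the OVOL lines. Over all genes with at least 1 FPKM in the higher line it was 0.15, 0.21, 0.36 and 0.15. No such limit was set for the members' medians, so ANXA9 is included throughout. With the sign kept, the members' medians were -0.01, 0.17, -0.32 and 0.14, beside 0.00, -0.04, -0.01 and -0.04 over all genes. In PC3-Epi 7 of 10 members were below their level in PC3-EMT14 and 3 above it. The 3 comparisons against PC3-EMT14 share its samples, so their values are not independent of each other.

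**Figure D2:**
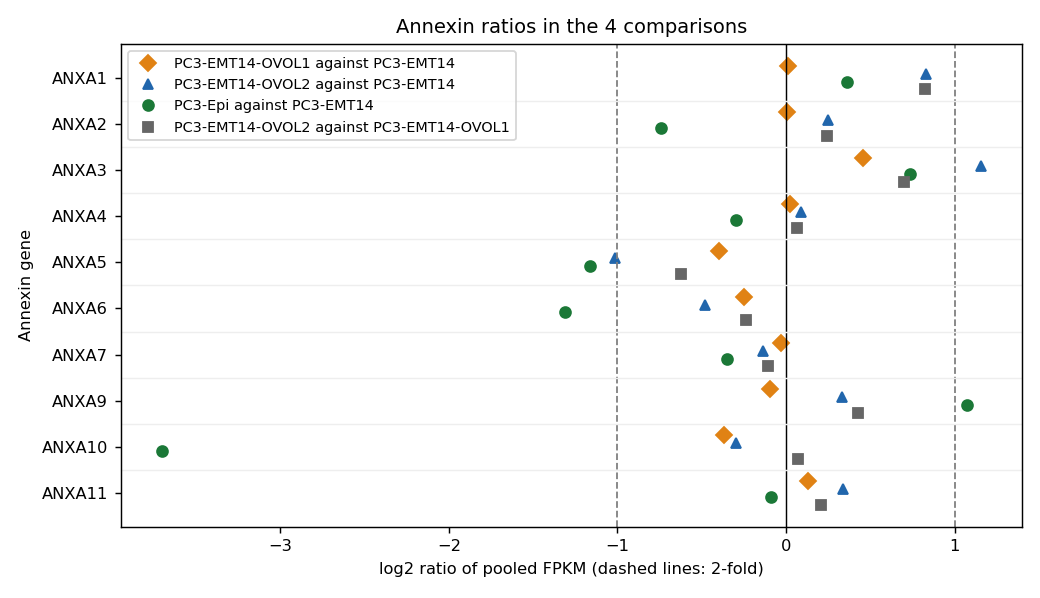
The log2 ratio of pooled FPKM (horizontal axis) of each annexin (vertical axis) in the 4 comparisons, 1 point per comparison, with dashed lines at 2-fold. The OVOL1 points all lie between the dashed lines, ANXA3 and ANXA5 of the OVOL2 line lie just past them, and ANXA10 of PC3-Epi lies at -3.70.

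**Figure D3:**
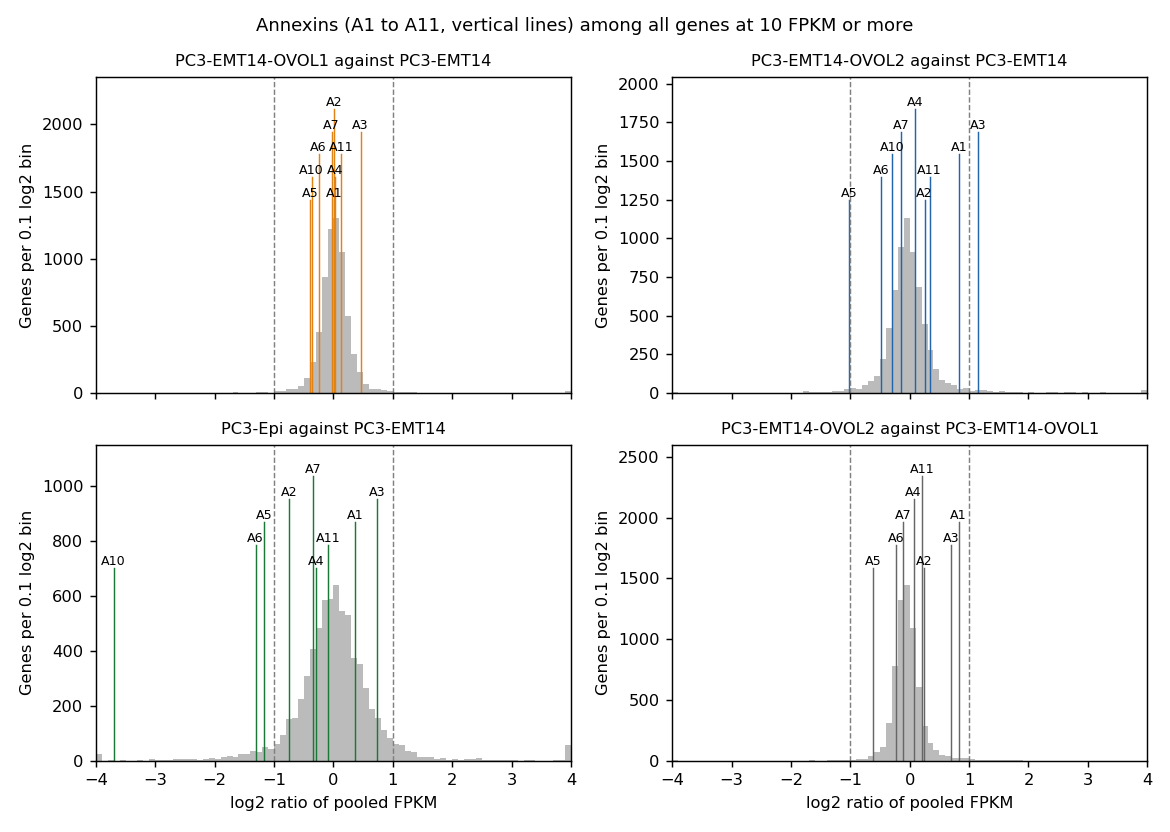
Number of genes per bin of log2 ratio (grey bars, genes with at least 10 FPKM in the higher line, with ratios beyond 4 in either direction placed in the end bins) and the annexins that met the same limit (coloured vertical lines, A1 standing for ANXA1, their heights set only to keep the names apart). The annexins of the OVOL1 line lie within the main body of genes, and ANXA10 of PC3-Epi lies at its far left edge.

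ANXA5, which binds phosphatidylserine and is the reagent of annexin V staining for dying cells, was highest in PC3-EMT14. Its gene lies on the minus strand at chr4:122589152-122618147 (hg19, as are all gene positions here). It had 445 FPKM in PC3-EMT14, 332 in the OVOL1 line, 213 in the OVOL2 line and 199 in PC3-Epi, so that PC3-EMT14 was the highest line and the OVOL2 line stood near PC3-Epi. The log2 ratio to PC3-EMT14 was -0.39 for OVOL1, -1.02 for OVOL2 and -1.17 for PC3-Epi. The OVOL2 ratio of 0.494 lay just inside the limit of 0.5. Between the OVOL lines ANXA5 was lower with OVOL2, with a log2 ratio of -0.62, and 4.08% of the genes at 10 FPKM or more had a larger absolute log2 ratio.

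ANXA6, a large annexin with a doubled core that links membranes and cholesterol to the cytoskeleton, followed the same order of lines. The gene is on the minus strand at chr5:150480267-150537443. Its levels were 96.4 FPKM in PC3-EMT14, 79.4 in the OVOL1 line, 66.8 in the OVOL2 line and 38.9 in PC3-Epi. Here the OVOL2 line stood nearer to PC3-EMT14 on the log2 scale, with a log2 ratio of -0.48, against -0.25 for OVOL1 and -1.31 for PC3-Epi. Of its 2 isoform entries, TCONS_00027621 held 100% of the isoform FPKM in 3 lines and 99.95% in the OVOL1 line.

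ANXA10, an atypical annexin best known from stomach epithelium, had the widest range of all members over the 4 lines, 3.70 on the log2 scale. Its gene is on the plus strand at chr4:169013707-169108893. It had 11.2 FPKM in PC3-EMT14, 8.49 in the OVOL1 line, 8.82 in the OVOL2 line and 0.858 in PC3-Epi. PC3-Epi alone was low, and the other 3 lines, which all come from PC3-EMT14, lay close together. PC3-EMT14 was 13.0-fold above PC3-Epi, and 1.28% of the genes at 10 FPKM or more had a larger absolute log2 ratio in that comparison. Because PC3-Epi was below 1 FPKM, the size of that difference depends on the scale, and with 1 FPKM added to both lines the log2 ratio was -2.71 in place of -3.70. The log2 ratios of the OVOL lines to PC3-EMT14 were -0.37 for OVOL1 and -0.30 for OVOL2, and the OVOL lines differed from each other by 0.07.

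The pattern most like that of ANXA10 was sought among 11987 genes by the Euclidean distance over the 3 log2 ratios to PC3-EMT14. The closest was PTPRG, a receptor tyrosine phosphatase, at a distance of 0.177, with log2 ratios of -0.30, -0.46 and -3.67 for OVOL1, OVOL2 and PC3-Epi. SLC22A17, SERP2, RGAG4 and PHOSPHO1 came next at 0.339, 0.342, 0.343 and 0.379. These 5 genes had 1.08 to 5.78 FPKM in PC3-EMT14, below the 11.2 of ANXA10, and the likeness rests on 3 ratios that share 1 reference line. With log2 ratios of -3.45 to -3.82 for PC3-Epi, all 5 were below 1 FPKM there. Their distances therefore depend on the scale, as the ratio of ANXA10 does.

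ANXA3, which has been tied to neutrophil granules and to angiogenesis, was the only member past 2-fold higher in the OVOL2 line. It lies on the plus strand at chr4:79472742-79531605. Its levels were 39.5 FPKM in PC3-EMT14, 53.1 in the OVOL1 line, 85.4 in the OVOL2 line and 65.8 in PC3-Epi. PC3-EMT14 was the lowest line, and the OVOL2 line stood above PC3-Epi. The log2 ratio to PC3-EMT14 was 0.46 for OVOL1, 1.16 for OVOL2 and 0.74 for PC3-Epi, and it was 0.70 for OVOL2 against OVOL1. For the OVOL2 line, 3.57% of the genes at 10 FPKM or more had a larger absolute log2 ratio.

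ANXA1 separated the OVOL lines most among the members, by 0.82 on the log2 scale. The gene is on the plus strand at chr9:75766781-75785307. It had 124 FPKM in PC3-EMT14, 123 in the OVOL1 line, 214 in the OVOL2 line and 159 in PC3-Epi. The OVOL1 line and PC3-EMT14 differed by less than the shift between tables, and the OVOL2 line was the highest. The ratio of the OVOL2 line to the OVOL1 line was 1.77 and that to PC3-EMT14 was 1.78, both just outside the limit of 2. Between the OVOL lines 2.27% of the genes at 10 FPKM or more had a larger absolute log2 ratio.

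ANXA9, another atypical annexin, was scarcely detected. It lies on the plus strand at chr1:150954499-150968114. It had 0.556 FPKM in PC3-EMT14, 0.510 in the OVOL1 line, 0.678 in the OVOL2 line and 1.17 in PC3-Epi. Its ratio of 2.10 in PC3-Epi met the limit of 1 FPKM by a small margin, so the count of 4 there includes a gene near the lower end of the measured levels.

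ANXA4, ANXA7 and ANXA11 were the steadiest members, with ranges of 0.34, 0.35 and 0.38 on the log2 scale over the 4 lines. ANXA4, an annexin of secretory epithelia, lies on the plus strand at chr2:69969127-70053596 and had 32.9 FPKM in PC3-EMT14, 32.7 in the OVOL1 line, 33.9 in the OVOL2 line and 26.7 in PC3-Epi. ANXA7, or synexin, a fusogenic annexin, lies on the minus strand at chr10:75135189-75173841 and had 421, 404, 371 and 331 FPKM in the same order of lines. ANXA11, a partner of S100A6 that tethers RNA granules to lysosomes, lies on the minus strand at chr10:81914880-81965328 and had 235, 251, 287 and 221 FPKM. PC3-Epi was the lowest line for all 3.

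ANXA2 had 626 FPKM in PC3-EMT14, 616 in the OVOL1 line, 722 in the OVOL2 line and 374 in PC3-Epi. PC3-Epi was the lowest line and the OVOL2 line the highest. The gene is on the minus strand at chr15:60639350-60690185. Its log2 ratio to PC3-EMT14 was 0.01 for OVOL1, 0.25 for OVOL2 and -0.74 for PC3-Epi, the last at 1.67-fold below PC3-EMT14 and so outside the limit. The value of ANXA2 depends on how reads were divided between it and its processed pseudogenes, which were listed as genes of their own. ANXA2P2 had 955, 901, 1170 and 552 FPKM in PC3-EMT14, the OVOL1 line, the OVOL2 line and PC3-Epi, above ANXA2 itself in each. ANXA2P1 had 25.8, 24.3, 31.3 and 14.2 FPKM and ANXA2P3 had 10.4, 10.5, 8.94 and 7.07. None of the pseudogene entries was past 2-fold. Summed over ANXA2 and the 3 pseudogenes, the log2 ratio was -0.03 for OVOL1, 0.30 for OVOL2 and -0.77 for PC3-Epi, close to those of ANXA2 alone.

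The sequences show how far a short read can separate these entries. Over 1017 coding bases of ANXA2 in GRCh37 (the assembly of hg19), ANXA2P2 was identical at 1001, or 98.4%, and the longest run without a difference was 221 bases. Of the 968 windows of 50 coding bases, the length of the reads, 59.4% occurred unchanged in ANXA2P2, against 7.33% in ANXA2P1 and 0.723% in ANXA2P3. These are shares of single coding windows and not of fragments. The reads were paired, and bases outside the coding sequence were not compared. The 60 bases within exon 4 of ANXA2, a coding exon, that differ most from ANXA2P2 are shown because they are the kind of stretch on which a read can be told apart. They lie at chr15:60656651-60656710 on the minus strand for ANXA2, at chr9:33624432-33624491 on the plus strand for ANXA2P2 and at chr10:66585489-66585548 on the plus strand for ANXA2P3 (GRCh37). Capitals mark, in the ANXA2 line, the bases where ANXA2P2 differs, and in the other lines the bases that differ from ANXA2.
ANXA2: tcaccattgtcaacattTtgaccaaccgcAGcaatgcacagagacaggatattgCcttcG
ANXA2P2: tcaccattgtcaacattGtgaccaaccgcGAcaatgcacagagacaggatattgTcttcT
ANXA2P3: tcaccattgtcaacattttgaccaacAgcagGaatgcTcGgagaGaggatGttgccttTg
ANXA2P2 differs at 5 of the 60 bases and ANXA2P3 at 7. How many reads of the ANXA2P2 entry came from ANXA2 was not tested, since the reads were not used here.

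Isoform shares were compared for the 4 members with more than 1 isoform entry, ANXA2, ANXA6, ANXA7 and ANXA11. A share is an isoform's FPKM over the sum of its gene's isoforms, and a shift is a change of at least 10 percentage points in any isoform where that sum was at least 1 FPKM in both lines. ANXA2 alone shifted, in the OVOL2 line and PC3-Epi against PC3-EMT14 and between the OVOL lines, and no member shifted in the OVOL1 line. Among all genes with several isoforms, 10.9% shifted for OVOL1, 17.2% for OVOL2, 19.3% for PC3-Epi and 13.7% between the OVOL lines. The isoform entries TCONS_00011729 and TCONS_00011732 held nearly all of ANXA2. TCONS_00011729 had 282 FPKM in PC3-EMT14, 274 in the OVOL1 line, 397 in the OVOL2 line and 218 in PC3-Epi, and TCONS_00011732 had 324, 323, 298 and 143. The share of TCONS_00011732 was 51.7% in PC3-EMT14, 52.4% in the OVOL1 line, 41.3% in the OVOL2 line and 38.2% in PC3-Epi. In the OVOL2 line the higher ANXA2 level, as listed, thus lay in TCONS_00011729, with a log2 ratio of 0.54 against -0.08 for TCONS_00011732. The isoform values depend on the same division of reads between ANXA2 and its pseudogenes. In PC3-Epi both were lower, by log2 ratios of -0.37 and -1.18. The isoform entries carry no transcript name in the tables, so the exons that set them apart are not given.

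**Figure D4:**
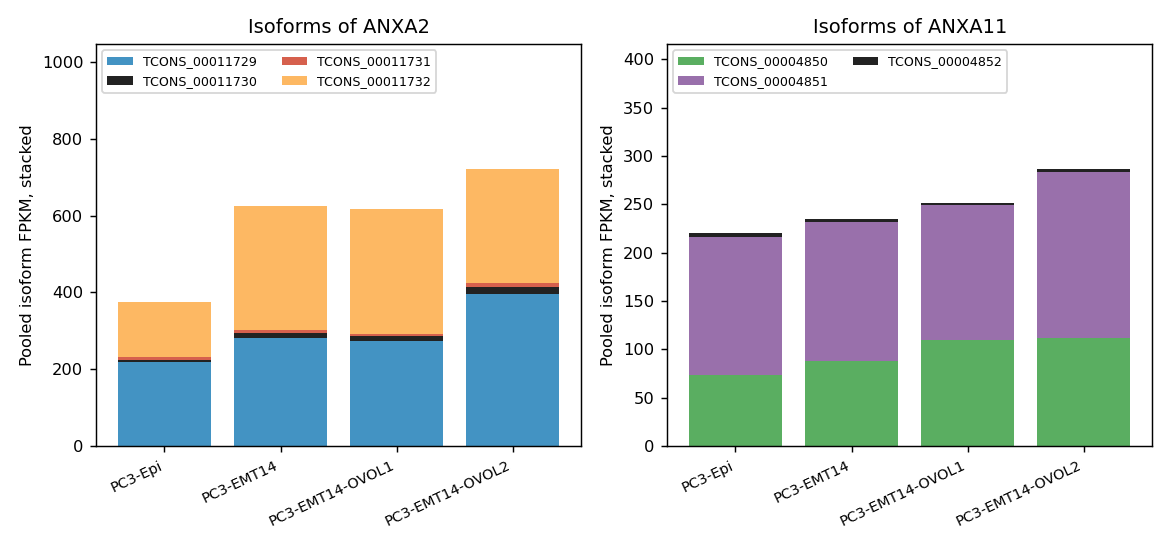
Pooled isoform FPKM, stacked (vertical axis, from 0), of ANXA2 (left) and ANXA11 (right) in the 4 lines. The share of TCONS_00011732 in ANXA2 is smaller in PC3-EMT14-OVOL2 (41.3%) and PC3-Epi (38.2%) than in PC3-EMT14 (51.7%), while the shares of ANXA11 change by at most 5.88 points in any comparison.

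ANXA11 had isoform entries at similar levels as well. TCONS_00004851 held 60.9% in PC3-EMT14, and its share lay between 55.9% in the OVOL1 line and 65.0% in PC3-Epi. TCONS_00004850 held most of the rest, from 33.3% in PC3-Epi to 43.6% in the OVOL1 line. In ANXA7 a single isoform held at least 99.75% in each line.

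The other annexin entries were near 0. ANXA8, at 2 entries, ANXA8L2 and ANXA13 had at most 0.217 FPKM in any line, ANXA13 was listed at 0 in PC3-EMT14, and no ratio is given for them.

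Among 16 genes that encode partners or receptors of annexins, 12 met the 1 FPKM limit in the comparisons of the OVOL lines and 13 in PC3-Epi. Against PC3-EMT14, 0 were past 2-fold higher and 1 lower in the OVOL1 line, 1 higher and 2 lower in the OVOL2 line, and 1 higher and 3 lower in PC3-Epi. Between the OVOL lines 0 were higher and 1 lower with OVOL2. Over all genes 3.97%, 7.35%, 15.7% and 3.08% were past 2-fold in these comparisons. The median log2 ratio of the partners that met the limit was -0.01, 0.02, -0.47 and 0.01, beside 0.00, -0.04, -0.01 and -0.04 over all genes. Among the S100 proteins that bind annexins, S100A10, the partner of ANXA2, had 296 FPKM in PC3-EMT14, 277 in the OVOL1 line, 306 in the OVOL2 line and 264 in PC3-Epi, and it differed least. S100A11, the partner of ANXA1, had 472, 488, 515 and 719 FPKM, with PC3-Epi the highest line at a log2 ratio of 0.61, and S100A6, a partner of ANXA11, had 1921, 2055, 2077 and 1428. S100A4, a metastasis-associated protein, had 61.9, 59.2, 51.0 and 27.9 FPKM, and in PC3-Epi it was past 2-fold lower, with a log2 ratio of -1.15.

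PLAT, the tissue plasminogen activator that ANXA2 and S100A10 bind, had the widest range among the partners with at least 1 FPKM in all 4 lines. It had 332 FPKM in PC3-EMT14, 325 in the OVOL1 line, 135 in the OVOL2 line and 9.99 in PC3-Epi. The OVOL1 line was level with PC3-EMT14, the OVOL2 line was lower by a log2 ratio of -1.26 and PC3-Epi by -5.06. PLG, its substrate, had at most 0.0312 FPKM. PLA2G4A, the cytosolic phospholipase A2 that annexins can inhibit, had 4.31 FPKM in PC3-EMT14, 1.05 in each OVOL line and 0.696 in PC3-Epi, with log2 ratios of -2.01, -1.99 and -2.63. DYSF, or dysferlin, which acts with annexins in membrane repair, had 5.77 FPKM in PC3-EMT14, 7.99 in the OVOL1 line, 12.9 in the OVOL2 line and 4.18 in PC3-Epi, and was the partner past 2-fold higher in the OVOL2 line with a log2 ratio of 1.20. Its relative MYOF had 116, 125, 123 and 78.2 FPKM in the same order. The formyl peptide receptors of ANXA1 were near 0: FPR1 had 1.05 FPKM in PC3-Epi, which made it the partner past 2-fold higher there, and at most 0.065 elsewhere, and FPR2 and FPR3 had at most 0.253.

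AHNAK, a scaffold of the ANXA2 and S100A10 complex, had 31.2 FPKM in PC3-EMT14, 27.7 in the OVOL1 line, 43.6 in the OVOL2 line and 19.6 in PC3-Epi. SRI, or sorcin, a partner of ANXA7, had 52.7, 52.3, 48.9 and 62.5 FPKM. PDCD6, which binds ANXA7 and ANXA11, shared a gene entry with AHRR, whose level was 119, 95.3, 80.6 and 73.4 FPKM. TRPM7, a channel kinase that phosphorylates ANXA1, had 5.35 to 6.02 FPKM. None of these was past 2-fold in any comparison.

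**Figure D5:**
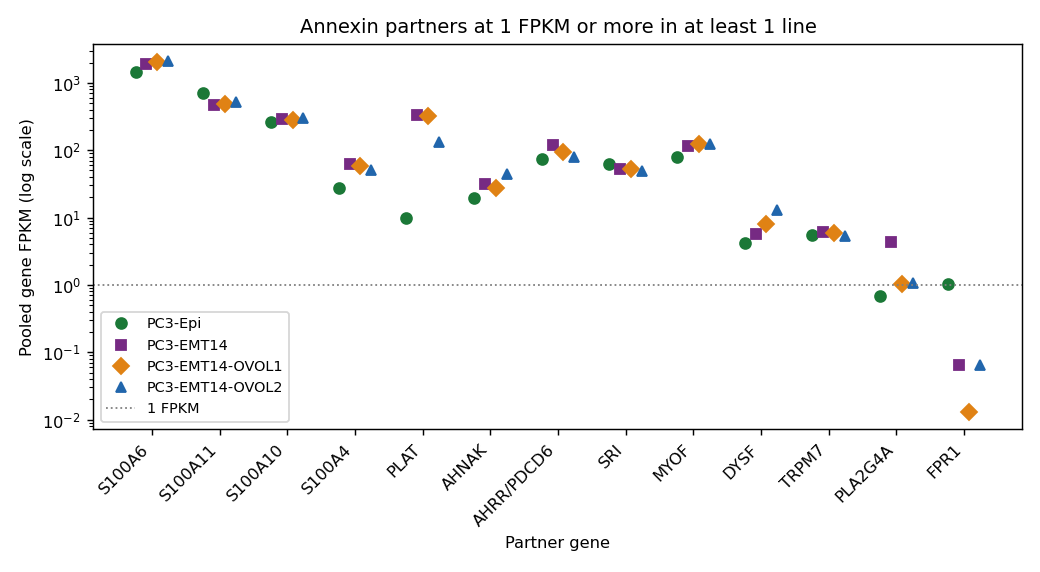
Pooled gene FPKM (vertical axis, log scale) of the 13 partner entries with at least 1 FPKM in any line, 1 point per line. PLAT spreads from 9.99 FPKM in PC3-Epi to 332 in PC3-EMT14, while S100A10 and SRI lie close together over the 4 lines.

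The 250 bases before the start of the genes that were past 2-fold at 10 FPKM or more are shown as RefSeq gives them for GRCh38.p14, a later assembly than that of the tables, because these 4 genes made up the calls at that level. Capitals mark the letters CAGGTG or, on the other strand, CACCTG, the E-box that ZEB1 and SNAI factors bind. For OVO-type factors the letters CCGTTA were searched on both strands, then the 4 cores that the OVOL2 consensus allows, which are CCGTTA itself, the variant CTGTTA, the variant ACGTTA and the variant ATGTTA, and then that whole consensus of 10 letters. These are not capitalised, and none overlaps the E-box in the windows shown. For ANXA6, which has 2 RefSeq windows, the outermost is shown. The windows lie at chr4:78551520-78551769 on the plus strand for ANXA3, chr4:121696981-121697230 on the minus strand for ANXA5, chr5:151157780-151158029 on the minus strand for ANXA6 and chr4:168092287-168092536 on the plus strand for ANXA10.
ANXA3: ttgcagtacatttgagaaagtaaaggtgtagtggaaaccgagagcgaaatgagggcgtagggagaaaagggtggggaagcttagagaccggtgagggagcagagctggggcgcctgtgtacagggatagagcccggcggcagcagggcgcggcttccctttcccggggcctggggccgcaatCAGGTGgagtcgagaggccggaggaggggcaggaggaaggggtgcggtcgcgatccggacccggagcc
ANXA5: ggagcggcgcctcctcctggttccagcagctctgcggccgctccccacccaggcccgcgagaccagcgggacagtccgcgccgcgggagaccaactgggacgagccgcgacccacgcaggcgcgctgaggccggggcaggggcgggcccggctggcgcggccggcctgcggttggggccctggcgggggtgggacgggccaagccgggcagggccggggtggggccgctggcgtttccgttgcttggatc
ANXA6: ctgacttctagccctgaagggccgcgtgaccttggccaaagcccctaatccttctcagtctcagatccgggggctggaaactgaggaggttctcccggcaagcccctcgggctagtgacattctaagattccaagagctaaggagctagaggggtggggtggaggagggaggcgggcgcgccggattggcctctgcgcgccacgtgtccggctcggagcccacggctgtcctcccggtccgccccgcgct
ANXA10: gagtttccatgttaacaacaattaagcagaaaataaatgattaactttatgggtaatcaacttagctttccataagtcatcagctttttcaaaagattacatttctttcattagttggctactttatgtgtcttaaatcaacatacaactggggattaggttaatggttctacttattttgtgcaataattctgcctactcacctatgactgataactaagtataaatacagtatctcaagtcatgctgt
Of the 4 windows, that of ANXA3 held the E-box, which begins 68 bases before the start, none held CCGTTA, and that of ANXA10 held ATGTTA, 242 bases before the start when counted from its first letter. The inner window of ANXA6 held the E-box 71 bases before its start, and an inner window of ANXA4 and of ANXA11 held it as well. Among all 35116 RefSeq windows of this length, inner ones included, 17.5% held the E-box, 2.45% CCGTTA, 16.5% any of the 4 cores and 0.877% the whole consensus. RefSeq has a window at the outermost start for 9 of the 10 members, of which 2 held the E-box, ANXA3 and ANXA7, and 1, ANXA7, held CCGTTA. Any of the 4 cores was found in 2 of the 9, ANXA7 and ANXA10, and the whole consensus in 0. The window of ANXA10 was poor in G and C, at 31.2% of its bases, and that of ANXA5 rich, at 78.8%, beside a median of 58% over all windows. A match is a description of letters, and no match says only that these letters are not in this window.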

How the data were processed

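RNA of 10 samples in 4 lines was sequenced, and the groups follow the sample labels. According to the study's methods, the authors aligned paired-end reads with TopHat to the UCSC hg19 transcriptome and compared pairs of lines with Cuffdiff, scaling to the upper quartile, weighting reads with more than 1 mapping place and adjusting for the bias of fragment ends. FPKM values were deposited by the authors in 8 tables, one of genes and one of isoforms per comparison, with 1 value per line and table pooled over its samples. The depth of each sample is therefore unknown, and upper-quartile scaling and the division of shared reads among loci can move a value. The tables also hold the authors' own fold changes, test statistics, p-values, q-values and calls, which were neither used nor compared. The number of columns of single samples left unused is 0.

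Ratios were computed within a table from the FPKM values with no pseudocount in Python 3.11.15 with numpy 2.4.6 and pandas 2.3.3, and plots were drawn with matplotlib 3.10.9. A gene was called past 2-fold at a ratio of at least 2 or at most 0.5 with at least 1 FPKM in the higher line, which keeps the fold part of the study's rule. The code for the calls was checked on real levels multiplied by set factors without noise, and that for the shares on a small made-up example. These checks carry no information on the error of the values. With 1 pooled value per line, no test was run. Genes named are the 10 members, other entries whose symbol begins with ANXA, a list of 16 partners, OVOL1 and OVOL2, marker lists (of which 2 genes are not reported here), and the 5 genes nearest to the member with the widest range. The members and lists were chosen with earlier results of these data known. Alternatives were no limit or 10 FPKM, thresholds of 1.5-fold and 4-fold, a pseudocount of 1 FPKM, centring on the median of all genes, other tables for the OVOL lines, a share shift of 20 points, and shares of the gene FPKM. Gene loci are those of the tables with the start counted from 1, and they differ in extent from the GENCODE annotation of GRCh37 for most members. The entry of ANXA2P1 spans far more than the annotated pseudogene.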

Additional observations from a re-analysis of the deposited data

How the results depend on the processing

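In the OVOL2 line against PC3-EMT14 the count of annexins past the threshold went from 2 to 1 when ratios were centred on the median of all genes, because ANXA5 then had a log2 ratio of -0.98, and to 0 at a threshold of 4-fold. At 4-fold the count in PC3-Epi went from 4 to 1, which was ANXA10. Between the OVOL lines it went from 0 to 3 at 1.5-fold. The shares of all genes past 1.5-fold and 4-fold were not computed. The shift of ANXA2 isoforms was lost at 20 points in all 3 comparisons that had it, with 0 members left in each. With a pseudocount of 1 FPKM the log2 ratio of ANXA9 in PC3-Epi was 0.48 and no longer past 2-fold, and that of ANXA10 was -2.71 in place of -3.70. The other 27 counts under an alternative stayed within 1.5 times the main count, and 88 of 90 log2 ratios of members stayed on their side of 2-fold. Some of the 27 could not have moved, since a count of 0 cannot rise under a stricter limit. The 27 also include rises at 1.5-fold from 4 to 6 in PC3-Epi and from 2 to 3 in the OVOL2 line. Centring changed the sign of no member, since the median of all genes lay at most 0.04 from 0. Scaling every line to the same PC3-EMT14 value, an alternative chosen after seeing the data, kept the order of lines for 7 of 10 members, with PC3-EMT14 and the OVOL1 line trading places in ANXA1, ANXA2 and ANXA4. No paired analysis was possible because each line has 1 pooled value per table, and for the same reason leaving out a replicate was not run. With depth unknown, values near 1 FPKM such as those of ANXA9 carry no known precision.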

Other observations

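Neighbouring genes are described for the annexins past 2-fold at 10 FPKM or more. These members were picked for their large ratios. Against PC3-EMT14 the median log2 ratio over all genes was -0.04 for the OVOL2 line and -0.01 for PC3-Epi. A neighbour median nearer to 0 than the member therefore does not separate the gene from its region. Whether a difference was particular to the annexin was not tested. Within 5 Mb on each side of ANXA10, 20 genes met the 1 FPKM limit for PC3-Epi against PC3-EMT14, with a median log2 ratio of -0.08 beside -3.70 for ANXA10 itself. Of those 20, 3 were past 2-fold, beside 15.7% of all genes, and the lowest was SPOCK3 at -4.08, a gene named here after its value was seen. Around ANXA5 the median of 20 neighbours was 0.01 for the OVOL2 line and -0.06 for PC3-Epi, beside -1.02 and -1.17 for ANXA5. Past 2-fold were 2 of the 20 for the OVOL2 line, beside 7.35% of all genes, and 7 for PC3-Epi, beside 15.7%. Around ANXA6 the median of 43 neighbours for PC3-Epi was -0.20, beside -1.31 for the gene. Of the 43, 11 were past 2-fold, beside 15.7% of all genes. Around ANXA3 the median of 52 neighbours for the OVOL2 line was -0.01, beside 1.16 for ANXA3, with 14 of the 52 past 2-fold, beside 7.35% of all genes, and BMP3, again named after its value was seen, the highest at 4.93.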
